A study of Drosophila melanogaster with 6 samples.

Results

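Wide CAP-D3 peaks are the regions where the deposited CAP-D3 ChIP-seq list marks a continuous stretch of at least 800 bp. They were selected on peak length alone, as the end minus the start of each deposited peak on 2L, 2R, 3L, 3R, 4 and X. The rule gave 762 wide peaks among 22059 CAP-D3 peaks on these chromosomes (3.45%), out of 22108 peaks in the whole list. The remaining 21297 peaks, under 800 bp, are referred to as narrower peaks.

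The samples were S2R+ cells, an embryonic Drosophila melanogaster line of Oregon R origin according to the labels, without a treatment. They comprised 2 samples of dCAP-D3 ChIP with antibody YZ384, 2 of IgG ChIP with normal rabbit IgG as the control antibody, and 2 of input, which is chromatin that was not precipitated. Chromatin was cut with micrococcal nuclease. The labels and the study's methods differ on the line (S2R+ or S2-DRSC), on the number of experiments and on the amount of nuclease, and the series text spells the antibody YZ834. The authors made 1 list per antibody, so each peak has 1 length and 1 score and no error between experiments can be given. Neither list holds read counts, so sequencing depth is not known.

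CAP-D3 is a subunit of Condensin II, a ring-shaped complex of SMC proteins and regulatory subunits that compacts and loops chromosomes in mitosis and interphase. MACS, the peak caller, reports a region wherever ChIP fragments exceed input, so a short peak marks a local enrichment and a wide one an enriched stretch or several joined sites. IgG recognizes no chromatin protein, and an IgG peak marks DNA that is recovered without a specific antibody. S2 lines resemble hemocytes, the blood cells of the fly.

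Lengths of the wide peaks ran from 800 to 2395 bp, with a median of 954 bp and quartiles of 854 and 1141 bp. The narrower peaks had a median of 320 bp and a minimum of 250 bp. Of the wide peaks, 321 reached 1000 bp, 47 reached 1500 bp and 12 reached 2000 bp. Together they covered 793.7 kb, which is 9.23% of the summed length of all CAP-D3 peaks on the 6 chromosomes. The score of a peak is the −log10 value that MACS gives for its p or q against input, as deposited by the authors. Its median was 11.1 in wide peaks, with quartiles of 8.62 and 13.8, and 9.09 in narrower peaks, with quartiles of 6.81 and 12.0. A score of at least 10 was reached by 471 wide peaks (61.8%) and by 8744 narrower peaks (41.1%). The highest scores were on narrower peaks, with 36.5 as the maximum of the wide peaks and 117.5 as that of the narrower ones. Length and score come from the same comparison with input and are given as a description without a test.

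**Figure D1:**
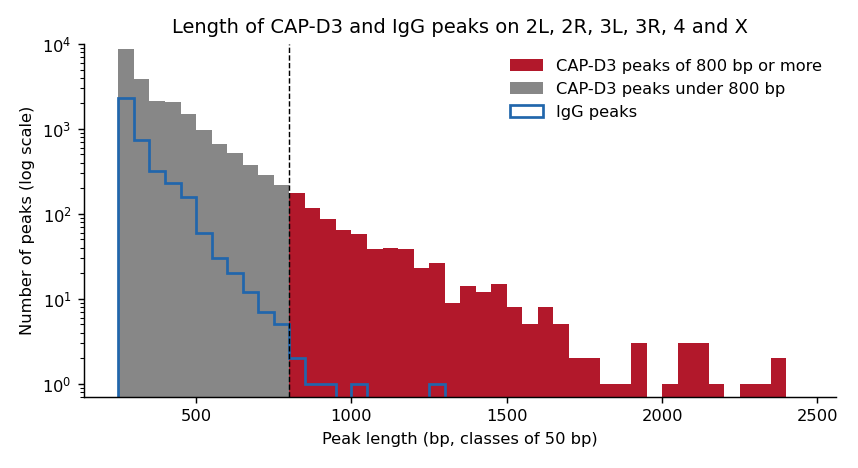
Number of peaks (log scale) against peak length in classes of 50 bp, for CAP-D3 peaks of 800 bp or more (red), CAP-D3 peaks under 800 bp (grey) and IgG peaks (blue outline). The dashed line is the limit of 800 bp. Counts decline without a gap at the limit, and the IgG list has 6 peaks past it.

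No break was seen at the limit itself. Here and below, an IgG peak at the midpoint is one that shares at least 1 bp with the 250 bp around the midpoint. It need not reach the midpoint base itself. The 35 peaks of 800 to 809 bp had a median score of 10.5, and 33 of them had their midpoint in a gene and 8 had an IgG peak at the midpoint. The 36 peaks of 790 to 799 bp had a median score of 10.8, and the counts were 35 and 8. The peaks on both sides of the limit were thus close in these counts.

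Wide peaks were spread over all major arms. There were 137 wide peaks among 4088 CAP-D3 peaks on 2L (3.35%, 95% Wilson interval 2.84 to 3.95%), 177 of 5121 on 2R (3.46%), 195 of 4867 on 3L (4.01%, 3.49 to 4.60%), 226 of 6937 on 3R (3.26%, 2.87 to 3.70%) and 27 of 1021 on X (2.64%, 1.82 to 3.82%). Chromosome 4 had 0 of 25, for which the interval extends to 13.3%. These and all later intervals allow for counting error alone and take each peak as independent. X held 3.54% of wide and 4.67% of narrower peaks, against 4.63% of all CAP-D3 peaks, an odds ratio of 0.750 (adjusted p = 0.192, Fisher's exact test). All these tests were two-sided, and adjusted p-values are Benjamini-Hochberg values over 6 of them. Each test compares peaks within 1 list, since peaks are not replicates of an experiment, and neighbouring peaks are not independent. Both the direction and the call on X changed with the processing, with an odds ratio of 1.11 among peaks that scored 10 or more. When peaks of a kind within 10 kb of each other were counted once, it was 0.440 and passed the test (unadjusted p = 8.89e-05, Fisher's exact test), as it did with a limit of 600 bp in place of 800 bp (0.701, p = 0.00298).

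Wide CAP-D3 peaks lay almost entirely inside genes. The midpoint fell in an annotated gene span for 725 of 762 wide peaks (95.1%, 95% Wilson interval 93.4 to 96.5%) and for 16792 of 21297 narrower peaks (78.8%, 78.3 to 79.4%), against 79.4% of all CAP-D3 peaks. The difference gave an odds ratio of 5.26 (adjusted p = 2.03e-35, Fisher's exact test). It did not depend on the midpoint, because 93.4% of wide and 77.4% of narrower peaks lay from end to end inside 1 gene span. Direction was the same on each of the 5 arms with wide peaks, with 92.3 to 100% of wide and 76.5 to 85.0% of narrower peaks inside genes. Among the 18 wide peaks that scored 20 or more, the share inside genes was 88.9%, against 69.9% of narrower peaks, which did not pass the test (Fisher's exact test, p = 0.113).

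The share inside genes rose with length below the limit as well. It was 76.1% for peaks of 250 to 299 bp, 77.7% for 300 to 399 bp, 81.8% for 400 to 599 bp and 89.4% for 600 to 799 bp. Above the limit it was 93.9% for 800 to 999 bp, 96.4% for 1000 to 1499 bp and 100% for the 47 peaks of 1500 bp or more. The genes concerned were almost all protein-coding, with 724 of the 762 wide midpoints (95.01%) in a protein-coding gene, against 76.9% of narrower midpoints.

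**Figure D2:**
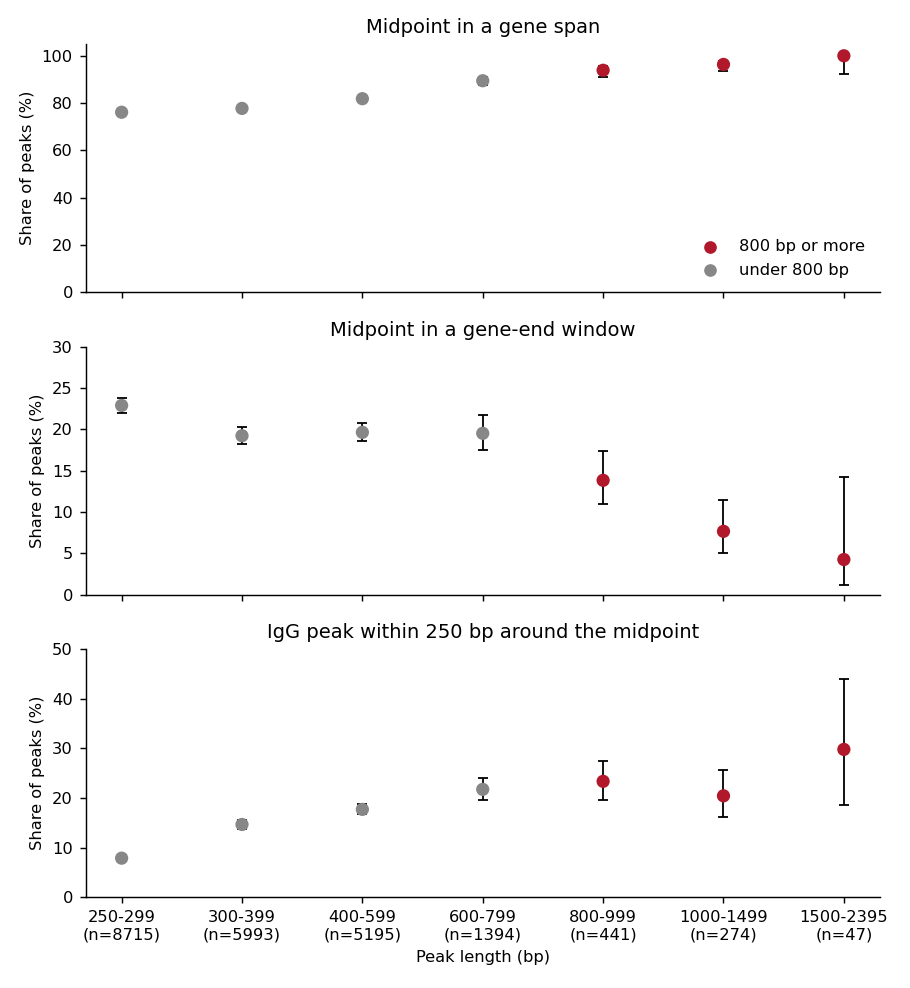
Share of CAP-D3 peaks (%) in each length class with the midpoint in a gene span (top), in a gene-end window (middle) and with an IgG peak in the 250 bp around the midpoint (bottom). Points are shares, bars 95% Wilson intervals for counting error, red is 800 bp or more, and n is the number of peaks. From the shortest to the longest class the share inside genes goes from 76.1 to 100% and the share in gene-end windows from 22.9 to 4.26%.

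Wide midpoints in noncoding genes alone were rare, which is not separate from their place in protein-coding genes. Only 1 wide midpoint (0.131%, interval 0.0232 to 0.740%) lay in a noncoding gene and in no protein-coding gene, and 421 narrower midpoints did (1.98%), against 1.91% of all CAP-D3 peaks, an odds ratio of 0.0652 (adjusted p = 1.49e-05, Fisher's exact test). A midpoint in a protein-coding gene cannot be counted in this class. As such genes held 95.01% of wide and 76.9% of narrower midpoints, the test in large part restates that difference. The single wide case was MACS peak 15884 on 3R, from 11298575 to 11299379, in lncRNA:CR31386, with 805 bp and a score of 15.7. Antisense RNA genes held 11 wide midpoints (1.44%) and 189 narrower midpoints (0.887%), and lncRNA genes held 2 (0.262%) and 526 (2.47%). Where a noncoding gene overlaps a coding gene, a peak cannot be assigned to one of them. No wide midpoint lay in an annotated miRNA, snoRNA, tRNA or rRNA gene, and of the narrower midpoints 2 lay in miRNA genes, 2 in snoRNA genes and none in tRNA or rRNA genes.

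Wide peaks were less frequent around gene ends, which is not separate from their place inside genes. Strand was not used here, so transcript starts and ends were pooled, as a window from 1000 bp outside to 100 bp inside either end of a gene. The midpoint was in such a window for 84 wide peaks (11.0%, interval 8.99 to 13.5%) and 4438 narrower peaks (20.8%, 20.3 to 21.4%), against 20.5% of all CAP-D3 peaks, an odds ratio of 0.471 (adjusted p = 4.09e-12, Fisher's exact test). The shortest CAP-D3 peak has 250 bp, so any peak wholly inside a gene has its midpoint over 100 bp from the ends of that gene. Such a midpoint, of a wide or a narrower peak, cannot fall in the window of that gene, most of which lies outside it. As 93.4% of wide and 77.4% of narrower peaks lay wholly inside 1 gene span, the test largely restates the gene-span result. The window share was 22.9% at 250 to 299 bp and 19.5% at 600 to 799 bp, and it was 13.8% at 800 to 999 bp, 7.66% at 1000 to 1499 bp and 4.26% at 1500 bp or more. Midpoints within 150 bp of a gene end numbered 6 (0.787%) among wide and 603 (2.83%) among narrower peaks. Length itself enters this count, since a wide peak wholly inside a gene has its midpoint about 400 bp or more from the ends of that gene. The median distance to the nearest gene end was nevertheless close, 2107 bp for wide and 2062 bp for narrower peaks.

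Long genes held similar shares of wide and narrower peaks. Gene spans of at least 50 kb held 126 wide midpoints (16.5%, interval 14.1 to 19.3%) and 3448 narrower midpoints (16.2%, 15.7 to 16.7%), against 16.2% of all CAP-D3 peaks, an odds ratio of 1.03 (adjusted p = 0.802, Fisher's exact test). Its direction was not stable, and among peaks inside genes the odds ratio was 0.814 (unadjusted p = 0.0384, Fisher's exact test), an alternative added after seeing the data. Genes of intermediate length showed the largest gap. Spans of 5 to 20 kb held 37.4% of wide midpoints (34.0 to 40.9%) and 22.6% of narrower midpoints (22.1 to 23.2%), where a midpoint in several genes was assigned to the longest. Genes under 5 kb held similar shares of all peaks, 22.7% of wide and 22.5% of narrower midpoints. These shares do not compare peaks inside genes alone, since 4.86% of wide and 21.2% of narrower peaks lay outside genes. The class of 5 to 20 kb was singled out after its values were seen and was not tested.

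The 37 wide peaks outside genes had an IgG peak at the midpoint more often than those inside genes. Their longest member, MACS peak 4185 on 2R from 1807316 to 1808752, had 1437 bp and a score of 17.3. Of the 37, 8 lay within 1000 bp of a gene end and 18 lay over 5000 bp away. An IgG peak was present in the 250 bp around the midpoint for 16 of them (43.2%), compared with 157 of the 725 wide peaks inside genes (21.7%). Outside genes 15.5% of narrower peaks had one, and inside genes 12.5%. These subgroups were compared after their values were seen and were not tested. Place along the arm was not separated from place outside genes. Some of the 37 lay toward the base of an arm, as in the 100 kb classes of 2R from 1000001 and from 1800001. The first held 12 CAP-D3 and 7 IgG peaks, and the second 5 and 3. Others lay elsewhere, as on 3R from 28200001, where the class held 17 CAP-D3 and 3 IgG peaks.

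IgG peaks were more frequent at wide than at narrower CAP-D3 peaks. To give each peak the same target, overlap was read in the 250 bp around the midpoint. An IgG peak shared at least 1 bp with this window for 173 wide peaks (22.7%, interval 19.9 to 25.8%) and 2789 narrower peaks (13.1%, 12.7 to 13.6%), against 13.4% of all CAP-D3 peaks, an odds ratio of 1.95 (adjusted p = 3.74e-12, Fisher's exact test). With the whole peak as target the numbers were 251 wide peaks (32.9%) and 2820 narrower peaks (13.2%), against 13.9% of all CAP-D3 peaks, but a longer peak also has a larger target. Both lists were called against input, so they are not independent of each other. When only IgG peaks that scored 10 or more were used, the shares were 3.41% of wide and 2.63% of narrower peaks, and the difference did not pass the test (odds ratio 1.31, Fisher's exact test, p = 0.205).

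The IgG share also increased with length below the limit of 800 bp. IgG was present at 7.88% of CAP-D3 peaks of 250 to 299 bp, 14.7% of those of 300 to 399 bp, 17.7% of those of 400 to 599 bp and 21.7% of those of 600 to 799 bp (interval 19.7 to 24.0%). Above 800 bp the share was 23.4% (19.7 to 27.5%) at 800 to 999 bp, 20.4% (16.1 to 25.6%) at 1000 to 1499 bp and 29.8% (18.7 to 44.0%) at 1500 bp or more. The intervals of these upper classes overlap with that of 600 to 799 bp.

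The IgG share was higher in wide peaks within each range of scores below 30. Among peaks with a score under 10, 58 of 291 wide peaks (19.9%) and 11.4% of 12553 narrower peaks had an IgG peak. From 10 to 15 the shares were 22.6% and 15.1%, from 15 to 20 they were 28.7% and 16.7%, and from 20 to 30 they were 37.5% of 16 wide peaks and 18.2% of 439 narrower peaks. Neither of the 2 wide peaks with a score of 30 or more had an IgG peak at the midpoint, and 7 of 39 narrower peaks did. On X the shares were low in both groups, 7.41% of wide and 5.73% of narrower peaks.

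**Figure D3:**
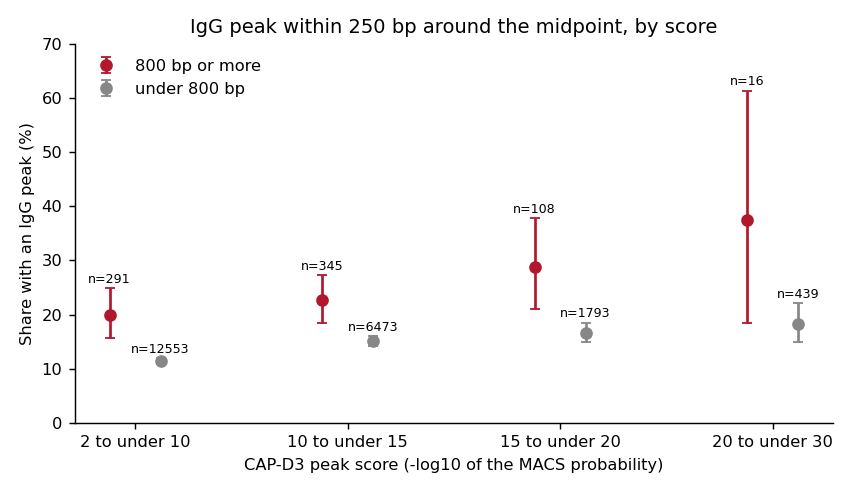
Share of CAP-D3 peaks (%) with an IgG peak in the 250 bp around the midpoint, by score (−log10 value given by MACS) for scores under 30, for peaks of 800 bp or more (red) and under 800 bp (grey). Bars are 95% Wilson intervals and n is the number of peaks; in the 4 bands shown the wide peaks are higher, and the intervals of both kinds overlap only from 20 to 30.

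Where an IgG peak was found, it filled a part of the wide peak. The 251 overlapped wide peaks held 283 IgG peaks, of which 229 (80.9%) lay completely inside. The IgG peaks had a median length of 318 bp and covered a median of 33.2% of a wide peak, and in 44 of the 251 they covered more than 50%. In 31 wide peaks there were 2 or more IgG peaks, and the peak in erm, which encodes a zinc finger transcription factor of neural progenitors, had 3. IgG centers were spread through the wide peaks, with a median distance from the midpoint of 0.46 of the way to the end. Their median score was 6.66, compared with 6.88 for IgG peaks on narrower CAP-D3 peaks only and 6.90 for IgG peaks on no CAP-D3 peak.

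**Figure D4:**
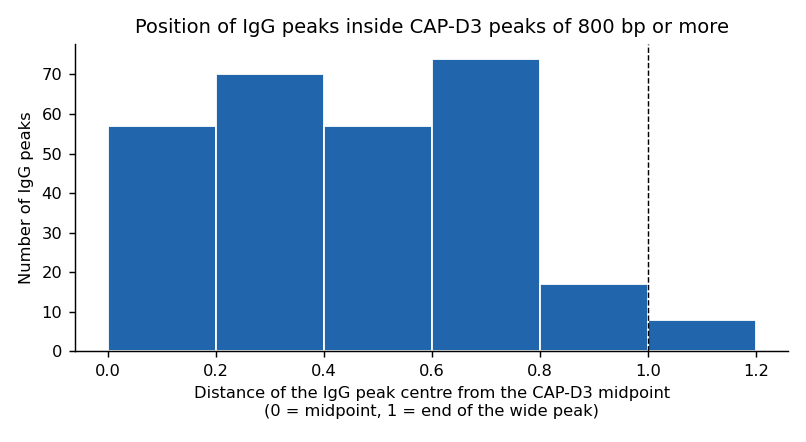
Number of IgG peaks by the distance of their center from the midpoint of the wide CAP-D3 peak, as a fraction of the distance from midpoint to end (dashed line). Counts are 57, 70, 57 and 74 in the 4 classes up to 0.8, then 17 up to the end, and 8 centers lie beyond it.

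Wide IgG peaks were rare. Of 3899 IgG peaks on the 6 chromosomes, 6 reached 800 bp (0.154%), and 4 of these overlapped a wide CAP-D3 peak. In dpy, an IgG peak from 4494964 to 4496244 on 2L (1281 bp, score 8.44) contained all 1264 bp of CAP-D3 peak 1039 from 4494980 to 4496243 (score 11.81). At Lsp1beta, which encodes a larval storage protein, the IgG peak from 900384 to 901219 (836 bp, score 9.55) lay inside CAP-D3 peak 289 from 900025 to 901263 (1239 bp, score 14.52). In Dhc62B an IgG peak of 1009 bp shared 632 bp with a wide CAP-D3 peak. The last lay outside genes on 3R and shared 146 bp with a wide CAP-D3 peak. The other 2 wide IgG peaks overlapped narrower CAP-D3 peaks.

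Genes with a wide peak numbered 674, of which 660 were protein-coding, among 7150 genes with any CAP-D3 midpoint. A single wide peak was found in 588 genes, 2 in 75 and 3 or more in 11. In the median gene the wide peaks covered 12.5% of the span. In 58 genes they covered at least 50% of it, so that the enriched stretch was most of the gene, and in 298 genes they covered under 10%.

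The gene with most wide peaks was dpy (dumpy), which encodes a very large extracellular protein that anchors epidermis and tendon cells to the cuticle. Its 13 wide peaks were 23.2% of the 56 CAP-D3 peaks in the gene and extended from 4482165 to 4561656 on 2L. Their lengths ran from 871 to 1361 bp with a median of 1005 bp, and their scores from 7.12 to 14.41 with a median of 10.4. The other 43 peaks had a median length of 353 bp. IgG was present in the 250 bp around the midpoint for 7 of the 13, and the gene held 21 IgG peaks in all. These wide peaks were thus numerous but not high in score, and IgG shared more of them than the 22.7% of all wide peaks.

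Myo81F, an unconventional myosin gene at the base of 3R, had 11 wide peaks of 79. They were spread over 1327 kb, from 877146 to 2204453, with lengths of 833 to 1267 bp and scores of 5.65 to 18.21, and 4 of them had an IgG peak at the midpoint. In luna, which encodes a transcription factor of the Krüppel-like family, 6 of 48 peaks were wide. The luna peaks had lengths of 811 to 1462 bp and scores from 11.4 to 31.2, and 1 had an IgG peak at the midpoint. The highest score, 31.19, belonged to MACS peak 5841 on 2R from 11080409 to 11081680, the second highest of all wide peaks.

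Dhc62B, a dynein heavy chain gene, had the run with most wide peaks, where a run is a series with gaps of at most 1000 bp. Its 5 wide peaks lay end after end on 3L from 1762240 to 1768469 and covered 77.0% of these 6230 bp, with gaps of 192 to 521 bp. Their lengths were 973, 1023, 980, 887 and 931 bp in genomic order, and their scores were 10.41, 17.1, 14.58, 23.06 and 11.42. IgG was present in the 250 bp around the midpoint for 4 of the 5, and the exception was the peak with the highest score. HERC2, a ubiquitin ligase gene on X, had 4 wide peaks of 1033, 1486, 1085 and 1482 bp with scores of 10.04, 8.65, 18.06 and 14.68. None of the 4 had an IgG peak, and the last pair was separated by 60 bp. HERC2 alone held 4 of the 27 wide peaks on X.

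Another 6 genes had 3 wide peaks each. Mi-2, the ATPase of the NuRD chromatin remodeling complex, had 3 of 10 peaks, with lengths of 803 to 1187 bp and IgG at 1. Spt20, a subunit of the SAGA histone acetyltransferase complex, had 3 of 7 peaks, which covered 88.7% of a run of 3179 bp with no IgG peak at a midpoint. L (Lobe), which acts in eye growth, had 3 of 13, with 1657 bp as the longest, and dpr12, an immunoglobulin superfamily gene of neurons, had 3 of 32, both without IgG at a midpoint. In blo there were 3 of 8 with IgG at 2, and in CG9932 3 of 12 with IgG at none. A gene with many peaks need not have a wide one, as SKIP held 46 narrower peaks and no wide peak.

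**Figure D5:**
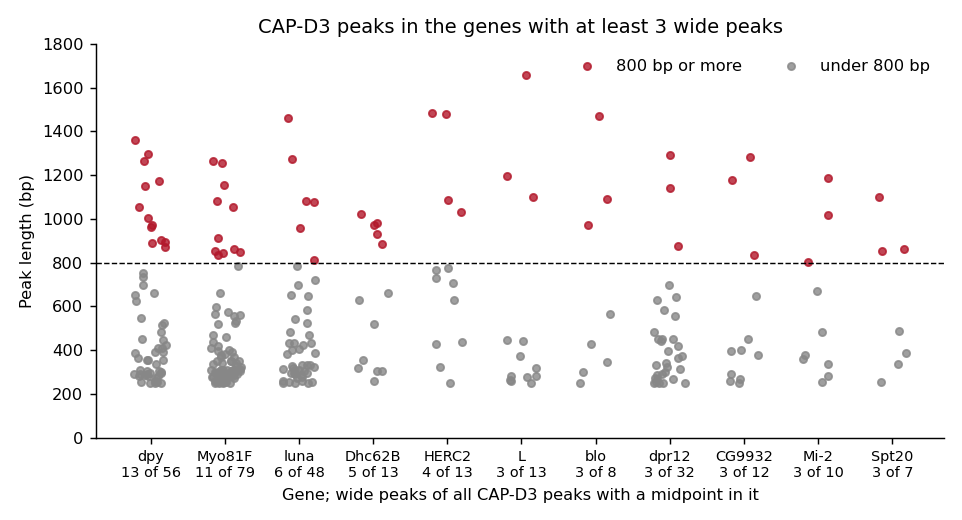
Length (bp) of each CAP-D3 peak with its midpoint in 1 of the 11 genes with at least 3 wide peaks; red points are 800 bp or more, grey points are shorter, and the dashed line is 800 bp. Numbers under the names are wide peaks of all peaks in the gene, 13 of 56 for dpy and 3 of 7 for Spt20; points are displaced sideways at random for visibility.

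Runs of wide peaks were found at 31 places, where 2 or more followed each other with gaps of at most 1000 bp, and these held 69 of the 762 wide peaks. In 5 of the runs there were 3 or more peaks, in Dhc62B, HERC2, luna, Myo81F and Spt20. In classes of 100 kb, the most wide peaks lay on 3L between 1700001 and 1800000, with 11 wide peaks among 55. That stretch contains Dhc62B, alpha-Spec, drpr, dlt, CG13921, CG7991 and CG18171, and 20 IgG peaks lay there as well.

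The longest peak of all was MACS peak 15916 on 3R from 11374846 to 11377240, in pros (prospero), a homeodomain transcription factor of neural lineages. It had 2395 bp and a score of 13.32, and an IgG peak overlapped 284 bp of it away from the midpoint. On X, the longest was MACS peak 21247 from 3854136 to 3856525 in ec (echinus), a gene of eye development, with 2390 bp, a score of 15.23 and no IgG overlap. The longest on 3L was in alpha-Spec, the α-spectrin of the membrane skeleton, with 2309 bp, a score of 16.04 and IgG peaks over 2 parts. On 2L it was in kis (kismet), a chromatin remodeling ATPase, with 2168 bp and a score of 15.13, and on 2R in exp, with 1811 bp and a score of 11.34. All 20 longest wide peaks lay completely inside 1 gene.

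Further peaks of over 2000 bp were in Hipk, a protein kinase gene (2281 bp, score 10.21), CG15431 (2123 bp, 14.54), erm (2120 bp, 16.72), CG7991 (2111 bp, 12.87), Cpr76Bd, a cuticle protein gene (2085 bp, 13.21), syd, a kinesin adaptor gene (2074 bp, 10.65), stumps, an adaptor of FGF receptors (2065 bp, 9.89), and Calx, a sodium/calcium exchanger gene (2049 bp, 15.05). Those in CG15431, erm and Calx had an IgG peak in the 250 bp around the midpoint, as had that of 1856 bp in CG13921. Those in Hipk, CG7991 and syd overlapped no IgG peak at all. The 12 peaks of at least 2000 bp therefore differed in score and in IgG overlap.

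Length and score ranked the wide peaks differently. The highest score, 36.49, was that of MACS peak 9724 on 3L from 1607279 to 1608351, where CG18170 and CG33791 overlap, with 1073 bp and rank 247 by length. After luna followed exex, a homeodomain gene of motor neurons, with 853 bp and a score of 29.88. CG16813 (945 bp, score 29.09) and CG32445 (1038 bp, score 28.64) came next, and the wide peak covered 90.7% of the span of CG16813 and 76.8% of that of CG32445. Of these 5 peaks only that with the highest score overlapped an IgG peak, by 297 bp and not at its midpoint.

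Genes of developmental and other classes were counted in 16 lists, which were chosen with earlier results of these data known and do not hold every gene of a class. Their counts are descriptions, to be read beside the 3.45% of all CAP-D3 peaks that are wide. Over all lists 45 of 1738 peaks were wide (2.59%), in 35 of the 371 listed genes that had any CAP-D3 peak. Gene length differs between the lists, and its part in these shares was not tested.

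Among segmentation genes, which pattern the early embryo, 6 of 61 peaks were wide (9.84%), each in another gene. They are named although they were singled out after their values were seen. The lengths and scores were 1381 bp and 7.61 in en, 1125 bp and 16.04 in tll, 1106 bp and 12.74 in hb, 972 bp and 11.7 in hkb, 817 bp and 14.28 in eve and 801 bp and 9.7 in prd. All 6 encode transcription factors. Few peaks lay in these genes, and the wide peak was the only CAP-D3 peak in hkb and tll and 1 of 2 in the others. It covered 59.6% of the span of hkb, 55.3% of eve and 53.9% of tll. Of the 6, hkb had an IgG peak at the midpoint.

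Hox genes had no wide peak among 87. Genes of wing veins and wing patterning had 3 among 169 (1.78%). They had 994 bp with a score of 7.41 in salm, a zinc finger transcription factor gene, 969 bp with a score of 9.63 in Delta, which encodes a Notch ligand, and 1024 bp with a score of 9.6 in Egfr, the EGF receptor. Of these, that in Egfr had an IgG peak at the midpoint. The gene kn (knot) had 5 narrower peaks of 250 to 443 bp and none that was wide. The scores in kn were 9.66, 14.58, 2.27, 20.28 and 2.17 in genomic order, where the lowest score of the list is 2. Nephrin and Neph1 family genes, adhesion proteins of nephrocytes and myoblasts, had 2 wide peaks among 44, both in sns, with 885 and 810 bp, and the longer had an IgG peak at the midpoint.

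Axon guidance and neuronal adhesion genes had 11 wide peaks among 679 (1.62%), in 8 of 77 genes with peaks. They included 3 in dpr12 and 2 in Ten-m, a teneurin of synaptic partner matching, with 1171 and 857 bp and scores of 7.48 and 7.10. Cadherin genes had 2 among 116 (1.72%), in ds and Cad99C. The 53 listed ion channel and neurotransmitter receptor genes had 4 among 197 (2.03%), of which 2 were in Shab, a voltage-gated potassium channel, with 1030 and 1017 bp and scores of 17.28 and 15.46. The list of odorant and gustatory receptor genes had 2 among 88 (2.27%), both in Ir41a, an ionotropic receptor gene that the list includes.

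Hemocyte genes had 5 wide peaks among 70 (7.14%). The neighbouring collagen IV genes held 4 of them, in Col4a1 with 908 and 885 bp and scores of 8.38 and 9.93, and in vkg with 1012 and 888 bp and scores of 9.01 and 10.47. Both in Col4a1 had an IgG peak at the midpoint and neither in vkg had one, and the last of the 5 was in Pxn, with 812 bp. Ecdysone response genes had 5 among 93 (5.38%). The steroid-induced transcription factor gene Eip93F had 1603 and 814 bp, its counterpart Eip75B had 1202 and 829 bp, and Hr39 had 1446 bp with a score of 8.90. IgG was present at the midpoint of the longer peak in Eip75B and of that in Hr39, and at neither in Eip93F.

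Cuticle protein genes had 4 wide peaks among 86 (4.65%), in Cpr76Bd, Cpr92F, Cpr50Ca and Cpr72Ea. Immune genes had 1 among 15, in dl (dorsal), an NF-κB family gene. The 18 peaks in cytoplasmic ribosomal protein genes, the 6 in condensin subunit genes and the 10 in Rb and E2F genes were all narrower. The 111 annotated replication-dependent histone genes contained no CAP-D3 midpoint. They are repeated copies, in which the handling of reads by the authors' alignment is not known here.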

How the data were processed

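ChIP-seq was performed for CAP-D3 and IgG in S2R+ cells, with input chromatin as background. The authors deposited 1 MACS peak list per antibody, giving position, name and score. Scores are −log10 values of the p-value or q-value that the authors obtained from MACS against input. Which of the pair was used, and how the experiments were combined, is not given in the sources used here. The submitters' processing notes name CASAVA 1.4, Trim Galore 0.3.7, cutadapt 1.8, FastQC 0.11.3, Bowtie 1.0.0 and MACS2 2.0.9. No score filter was applied here, so peaks down to a score of 2 were kept. The paper counts fewer CAP-D3 sites, at a stricter threshold, so not every peak described here is among them.

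Starts were converted to count from 1, and the midpoint is the middle base. Gene spans of Release 6 plus ISO1 MT (RefSeq, 17684 genes on the 6 chromosomes) were used for names and for which peaks lie in which gene. The lists name no build. Sequence names of the lists are those of Release 6, and 2.76% of midpoints lay within 150 bp of a gene end, compared with 8.72% and 8.63% when all midpoints were moved by 5000 bp up or down, so fewer lay near gene ends than after a shift. Gene coordinates are not printed. The planned exon test, transcript starts by strand, base composition and motifs were not analysed here.

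Wide and narrower peaks were compared with Fisher's exact test (two-sided, 6 tests, Benjamini-Hochberg adjusted, threshold 0.05) and 95% Wilson intervals. The overlap and test functions were tested on simulated data. Members, lists and tests were chosen with earlier results of these data known, a gene entered in the cadherin list by mistake was taken out later, and the entries for Delta and Cals were later respelled as in the annotation. Genes were named for the longest and highest-scoring peaks, for at least 3 wide peaks and for membership in a list, with at most 12 per rule, apart from genes said to be singled out later. Calculations used scipy 1.17.1, statsmodels 0.14.6, pandas 2.3.3 and numpy 2.4.6 in Python 3.11.15, and figures matplotlib 3.10.9.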

Additional observations from a re-analysis of the deposited data

How the results depend on the processing

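No paired analysis was possible because values for single experiments are not part of the 1 list per antibody, and for the same reason no replicate could be left out. Over 59 alternatives, with an unadjusted threshold of 0.05, the odds ratio of wide against narrower peaks ran from 1.31 to 3.22 for IgG overlap, 3.005 to 8.344 for gene spans, 0.262 to 0.747 for gene-end windows and 0 to 0.198 for noncoding genes only. The lowest value for gene-end windows came from 500 bp on both sides of a gene end. Peak length itself enters the alternatives of 500 and 150 bp on both sides, because midpoints of wide peaks inside genes lie further from the ends. The alternatives of a whole peak inside 1 gene and of peaks inside genes were added after seeing the data. Scores of at least 20, which leave 18 wide peaks, did not pass the test for IgG (2.25, Fisher's exact test, p = 0.122), gene spans (3.45, p = 0.113), gene-end windows (0.737, p = 0.776) and noncoding genes (0, p = 1). Restricting IgG to scores from 10 up gave 1.31 (Fisher's exact test, p = 0.205). Requiring IgG at the midpoint base itself gave 1.34 (Fisher's exact test, p = 0.00565). Long genes, at 1.03 with all peaks, were below 1 at scores of at least 20 (0.604), at 600 bp (0.888), with peaks within 10 kb counted once (0.829), without peaks that overlap IgG (0.904) and inside genes only (0.814). X, at 0.750, was 1.11 at scores of at least 10, and passed Fisher's exact test at 600 bp (0.701, p = 0.00298) and with peaks within 10 kb counted once (0.440, p = 8.89e-05). The causes of these shifts were not tested. The unknown sequencing depth limits any reading of length.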
